A study of Mus musculus with 12 samples.

Results

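Tumor-infiltrating CD8+ T cells that were positive for an A2AR reporter were compared with reporter-negative CD8+ T cells from the same kind of tumor after anti-PD-L1 treatment. The comparison rested on the 6 libraries, of 12 in the series, whose labels gave anti-PD-L1 treatment, 3 sorted as GFP+ (KT19, KT21 and KT23) and 3 sorted as GFP- (KT20, KT22 and KT24). Both groups came from A2AR eGFP reporter mice on a C57BL/6 background, which carried 500000 AT-3 ova cells, a mouse mammary carcinoma line that expresses chicken ovalbumin, under the skin. Anti-PD-L1 was given on days 14 and 18 after inoculation and the tumors were taken on day 21. The other 6 libraries were 3 GFP+ (KT13, KT15 and KT17) and 3 GFP- (KT14, KT16 and KT18) sorts from non-treated tumors of the same mouse line, taken on the same day. The mice were female and 6 to 16 weeks old, and each library pooled cells of 3 mice, so that an animal's own value could not be recovered. The reporter was a bacterial artificial chromosome transgene in which the EGFP coding sequence and a polyadenylation signal stand at the Adora2a start codon, and GFP therefore reports the activity of that transgene and not of the gene's own locus. The labels did not tie a GFP+ library to a GFP- library from the same pool, and p-values measure the spread between these pooled libraries.

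A2AR, the product of Adora2a, is a receptor for extracellular adenosine that raises cyclic AMP in T cells and is known to dampen their signaling. PD-L1 is a ligand of the inhibitory receptor PD-1, and antibodies to it are used to release T cells from that inhibition. Ly49 receptors, ITAM adaptors and other genes first described in NK cells are also transcribed by subsets of activated CD8+ T cells.

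Read counts per gene from 3′ RNA sequencing were scaled to the library total with TMM factors and are given as CPM, the usual unit of counts relative to library size, and log2 fold changes of GFP+ over GFP- with their standard errors (SE) came from edgeR's quasi-likelihood test over all genes that passed a filter on low counts. A gene was called at a Benjamini-Hochberg adjusted p under 0.05, and calls and adjusted p are edgeR's unless another tool is named. The 6 anti-PD-L1 libraries held between 12881695 and 15746937 counts. KT21 stood apart from the others. The median of its Spearman correlations across genes with the other 11 libraries came to 0.929, against 0.973 to 0.977 for the other 5 anti-PD-L1 libraries, and KT13, a non-treated GFP+ library, had 0.937. Among 9494 genes with a mean of at least 5 CPM, 793 were more than 2-fold lower in KT21 than in each of the other 5 anti-PD-L1 libraries and 80 were more than 2-fold higher, whereas the other 5 libraries had 4 to 11 and 0 to 2 such genes. Tmsb4x, which encodes an actin-binding thymosin, stood at 2427 CPM in KT21 and between 8939 and 10700.2 CPM in the others. Gzmb, the granzyme B gene, stood at 115 CPM in KT21 and between 405 and 562 CPM in the others. Results are therefore given with all 12 libraries, without KT21, and without both KT13 and KT21 where this mattered.

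**Figure D1:**
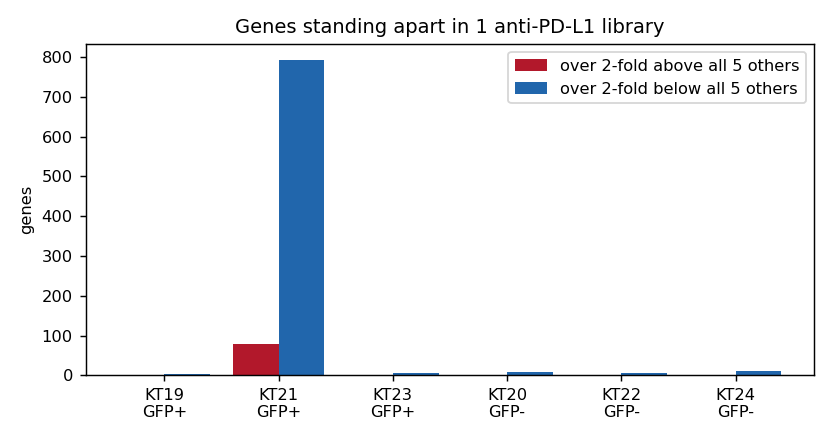
Number of genes, of 9494 with a mean of at least 5 CPM, that were over 2-fold above (red) or over 2-fold below (blue) all 5 other anti-PD-L1 libraries, for each library on the x axis. KT21 had 80 genes above and 793 below, and no other library had more than 11 of either.

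The sorted cells carried the transcripts of CD8+ T cells in both groups. Cd8a, which encodes the CD8 alpha chain, was at 1149, 1340 and 1283 CPM in KT19, KT21 and KT23 and at 1275, 1345 and 1360 CPM in KT20, KT22 and KT24. Cd8b1, its partner chain, was at 477, 662 and 651 CPM in GFP+ and at 642, 738 and 827 CPM in GFP- libraries. The groups overlapped for both chains. Cd4 did not exceed 0.451 CPM in any of the 6 libraries.

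With all 12 libraries in the fit, 4 of 14173 genes were higher in GFP+ cells after anti-PD-L1 (0.0282% of the genes tested) and 0 were lower. The 4 genes were Adora2a, the Ly49 receptor gene Klra7, the adaptor gene Tyrobp and the ubiquitin ligase receptor gene Klhdc2. By edgeR's quasi-likelihood test 338 genes were higher and 240 lower at an unadjusted p under 0.05. These 578 were fewer than the 0.05 share of the 14173 genes expected with no difference. The count of genes called lower was 16 by DESeq2 (0.113%) and 7 by limma with sample quality weights (0.0494%), against 31 (0.219%) and 13 (0.0917%) called higher. Without KT21, 5 genes were called higher (0.0334%) and 1 lower (0.00668%) of 14979, since Klra6 joined the higher genes and Ifitm2 the lower ones. Without KT13 and KT21, 14 genes were called higher (0.0949%) and 11 lower (0.0746%) of 14747, and these 25 genes included all 4 genes called with all 12 libraries and all 6 called without KT21. The rest of the 25 were not called when KT21 alone was left out. Gzma, Ikzf2 and Ifitm1 then had log2 fold changes of -2.03, 0.88 and -1.20, with adjusted p of 0.138, 0.138 and 0.556. With KT13 left out as well, these fold changes stayed the same and the adjusted p were 0.00238, 0.00427 and 0.00969. KT13 is in neither group compared, and enters through the filter, scaling and spread that all libraries share. The 25 genes had the same sign of change with all 12 libraries, and for 24 of them the 3 GFP+ and 3 GFP- libraries did not overlap, which their selection in 5 of these 6 libraries largely fixes. Over all 14173 genes, 753 (5.31%) had all 3 GFP+ libraries above all 3 GFP- libraries and 756 (5.33%) had all 3 below. The fit on the 6 anti-PD-L1 libraries alone called 0 genes, with 450 of 12854 at an unadjusted p under 0.05, also fewer than that share. The same fit without KT21 called 18 higher (0.135%) and 14 lower (0.105%), of which 24 were among the 25. With all 12 libraries, 22 of the 25 were among the 47 genes called by DESeq2 and 20 were the 20 called by limma.

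**Figure D2:**
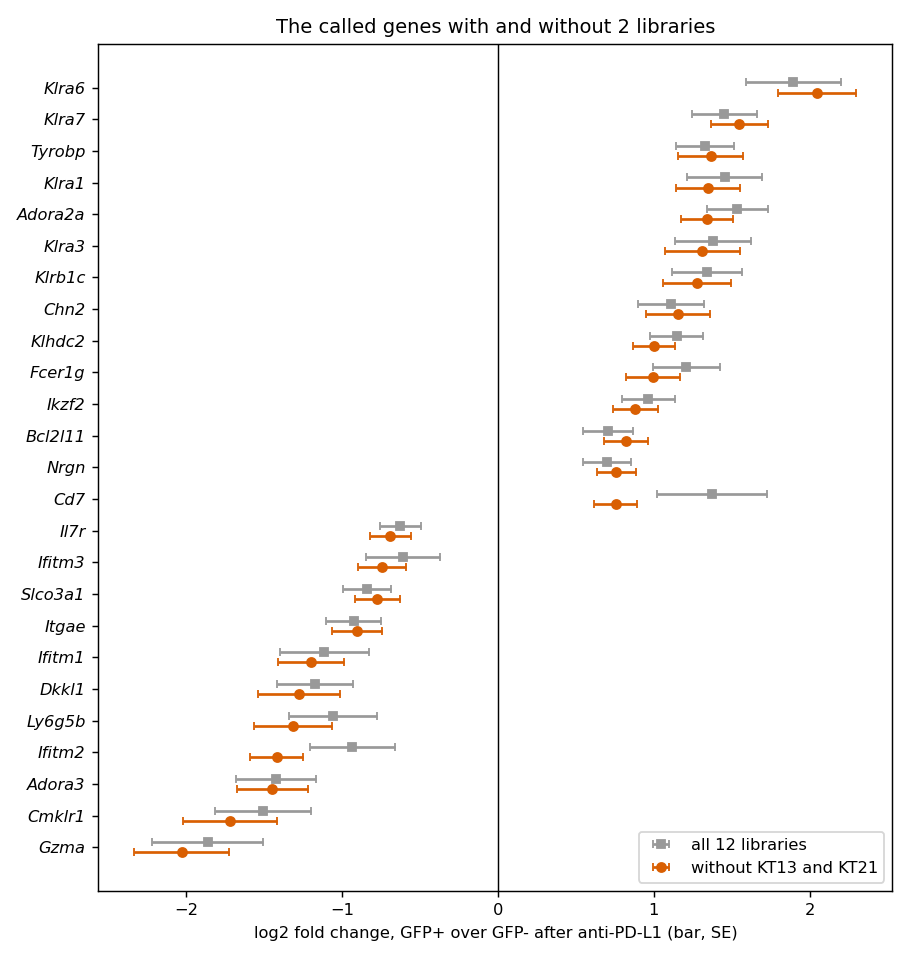
Log2 fold change of GFP+ over GFP- cells after anti-PD-L1 (x axis) for the 25 genes called without KT13 and KT21, with all 12 libraries (grey squares) and without these libraries (orange circles). Bars are standard errors. All 25 genes kept their sign, and Cd7 and Ifitm2 moved most between the fits.

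Adora2a (chr10:75316877-75334784, plus strand, mm10) encodes the receptor whose reporter was used for the sort, so its level served as the check of the labels. It was at 66.3, 111 and 89.1 CPM in KT19, KT21 and KT23, and at 31.4, 34.6 and 26.0 CPM in KT20, KT22 and KT24. All GFP+ libraries were above all GFP- libraries, and KT21 was the highest. On the log2 scale the difference was 1.53 (SE 0.19, adjusted p = 0.0226), with 88.9 ± 22.5 CPM in GFP+ and 30.7 ± 4.38 CPM in GFP- cells (SD, n = 3 each). Without KT13 and KT21 it was 1.34 (SE 0.17, adjusted p = 0.000175). Adora2a transcripts were thus also counted in GFP- cells. The call was lost when 1 GFP- library was left out, with 1.57 without KT20 (adjusted p = 0.0746), 1.65 without KT22 (adjusted p = 0.107) and 1.45 without KT24 (adjusted p = 0.264). Of the annotated neighbours on either side, Bcr, a kinase and GTPase regulator gene, had a log2 fold change of -0.38 (SE 0.24), Specc1l, a cytoskeletal protein gene, 0.25 (SE 0.20) and Gucd1 -0.07 (SE 0.30), and none of these was called. Upb1, which encodes an enzyme of pyrimidine breakdown, was at 1.33 to 1.74 CPM in GFP+ and 0.214 to 0.830 CPM in GFP- libraries and was not called, and Rab36, Gm46234, Gm5779 and Gm25545 were at or under 0.830 CPM in every library.

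Among other genes of adenosine signaling, Adora3, which encodes the A3 adenosine receptor, went the other way. It was at 8.76, 10.996 and 12.4 CPM in the GFP+ libraries and at 26.9, 28.7 and 30.6 CPM in the GFP- libraries. The groups did not overlap, and each group was tight. Its log2 fold change was -1.42 (SE 0.26, adjusted p = 0.0918) with all 12 libraries and -1.45 (SE 0.23, adjusted p = 0.00277) without KT13 and KT21. Adora3 overlaps Tmigd3 on the same strand by 38024 bases, and Tmigd3 did not exceed 0.226 CPM in any of the 6 libraries. Nt5e, the ectoenzyme CD73 that forms adenosine, was at 39.1 to 55.9 CPM in GFP+ and 55.0 to 60.3 CPM in GFP- libraries. Entpd1, the ectoenzyme CD39 that acts before it, was at 32.3 to 41.3 and 34.7 to 38.8 CPM. Dpp4, a further gene of the list of adenosine receptors and ectoenzymes, was at 17.1 to 48.4 and 47.4 to 50.9 CPM. The libraries overlapped for all 3 of these genes and none was called. Of 12 genes tested in the list of adenosine receptors and ectoenzymes, edgeR called Adora2a alone with all 12 libraries (0.0282% of all genes called higher). Without KT13 and KT21 edgeR called Adora2a higher (0.0949% of all genes) and Adora3 lower (0.0746%). DESeq2 and limma with sample quality weights called both with all 12 libraries (Adora3 adjusted p = 0.000442 and 0.00457). The median log2 fold change was -0.02 beside 0.00 over all genes tested. Of 22 genes responsive to cyclic AMP, 0 were called in either direction by edgeR, DESeq2 or limma with all 12 libraries or by edgeR without KT13 and KT21. Of the 22, 1 was non-overlapping and higher (5.31% of all genes) and 0 lower, with a median of -0.03. With KT21 set aside 5 of 22 were non-overlapping and higher (11.5% of all genes) and 0 lower, and the median without KT13 and KT21 was 0.09.

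The receptors of the Ly49 family, lectin-like receptors for MHC class I encoded together on chromosome 6, had the largest median difference among the 33 lists of genes grouped by function. Klra7 (chr6:130218605-130233322, minus strand), which encodes Ly49G, was at 96.7, 74.9 and 89.5 CPM in GFP+ and at 34.9, 37.5 and 23.1 CPM in GFP- libraries. Every GFP+ library was above every GFP- library, with KT21 the lowest of them. Its log2 fold change was 1.45 (SE 0.21, adjusted p = 0.0298), and 1.55 (SE 0.18, adjusted p = 0.000166) without KT13 and KT21. Without KT19, KT20, KT22, KT23 or KT24 it was 1.28 to 1.603, with adjusted p of 0.0585 to 0.264. Klra6 (chr6:130013033-130026954), which encodes Ly49F, was at 21.6, 14.2 and 19.2 CPM against 6.004, 5.42 and 3.32 CPM. The libraries did not overlap, and the log2 fold change of 1.90 (SE 0.30, adjusted p = 0.0632) was 2.05 (SE 0.25, adjusted p = 0.000170) without KT13 and KT21. Klra1 (chr6:130363917-130386874), which encodes Ly49A, was at 56.0, 57.9 and 37.6 CPM against 21.2, 19.9 and 14.1 CPM, and was called without KT13 and KT21 (1.35, SE 0.21, adjusted p = 0.00245) but not with all 12 libraries (adjusted p = 0.0693), where DESeq2 (adjusted p = 5.14e-05) and limma (0.0103) did call it. Klra3 (chr6:130323289-130337574), which encodes Ly49C, was at 22.2, 24.5 and 20.4 CPM against 11.1, 8.55 and 6.04 CPM and was likewise called without these libraries (1.31, SE 0.24, adjusted p = 0.0117).

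The start regions of Klra7 and Klra6, the Ly49 genes that edgeR called higher without KT21, are shown because these members moved together. Each window runs from 250 bases before to 50 bases after an annotated start (RefSeq, GRCm38.p6), 5′ to 3′ on the gene's strand, with capitals for matches to TTCNNNGAA, a STAT-type element present in 8.30% of 32851 such windows on either strand. TGACGTCA, the cyclic AMP response element (1.79% of windows), and an interferon-type element read as GAAA, any 2 bases and GAAA again (3.44%), were also searched, on both strands, and had no match in these windows. The upstream Klra7 window and the Klra6 window were identical at 68.2% of aligned positions, and the downstream Klra7 window, which holds 2 matches, was identical to the upstream one at 49.4%.
Klra7, start within the gene, chr6:130231638-130231937, minus strand: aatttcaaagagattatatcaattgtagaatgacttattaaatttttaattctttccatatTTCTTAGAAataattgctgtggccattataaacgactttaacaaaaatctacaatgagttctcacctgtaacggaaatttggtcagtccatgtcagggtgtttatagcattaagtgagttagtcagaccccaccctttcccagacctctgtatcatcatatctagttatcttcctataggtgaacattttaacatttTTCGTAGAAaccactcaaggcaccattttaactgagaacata
Klra7, upstream start, chr6:130233273-130233572, minus strand: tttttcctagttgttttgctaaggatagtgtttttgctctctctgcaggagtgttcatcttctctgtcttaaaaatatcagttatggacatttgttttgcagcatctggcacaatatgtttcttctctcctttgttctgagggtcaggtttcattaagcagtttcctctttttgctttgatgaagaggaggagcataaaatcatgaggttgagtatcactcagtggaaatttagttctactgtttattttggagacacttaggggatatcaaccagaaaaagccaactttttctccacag
Klra6, chr6:130026905-130027204, minus strand: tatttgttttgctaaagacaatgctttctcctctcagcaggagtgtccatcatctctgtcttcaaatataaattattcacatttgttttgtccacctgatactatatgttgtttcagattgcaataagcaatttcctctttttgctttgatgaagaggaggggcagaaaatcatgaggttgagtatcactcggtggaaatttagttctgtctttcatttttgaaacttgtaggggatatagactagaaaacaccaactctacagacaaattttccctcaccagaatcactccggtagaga

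Of 16 Ly49 genes and pseudogenes in the list, 13 symbols were found in the counts and 10 passed the filter. Of these 10, 7 were non-overlapping and higher in GFP+ libraries (background 5.31%), 0 were lower, and 8 had a positive log2 fold change, with a median of 1.45. Summed over the family, the level was 237, 212 and 209 CPM in KT19, KT21 and KT23 and 90.9, 97.1 and 66.7 CPM in KT20, KT22 and KT24. By edgeR 1 of 10 was called higher with all 12 libraries (0.0282% of all genes) and 4 of 10 without KT13 and KT21 (0.0949%). With all 12 libraries DESeq2 called 6 of 10 (0.219%) and limma with sample quality weights 4 of 10 (0.0917%). Klra9 was at 14.9, 16.001 and 15.7 CPM against 2.60, 6.91 and 5.81 CPM, with an adjusted p of 0.0537 without KT13 and KT21 and of 0.00614 by DESeq2 with all 12 libraries. Klra8, which encodes the activating receptor Ly49H, was at 5.22, 9.02 and 3.999 CPM against 0.651, 1.28 and 2.42 CPM and was not called in either edgeR fit, with an adjusted p of 0.0243 by DESeq2. Klra5 went against the group, at 1.52 to 3.85 CPM in GFP+ and 2.82 to 4.63 CPM in GFP- libraries. Members of this family resemble each other. Of all 75-base stretches in the last 500 bases of the annotated transcripts, 11.01% for Klra7 were shared with Klra13-ps, 11.6% for Klra3 were shared with Klra9, Klra10 or Klra11-ps, 0.565% for Klra1 with Klra4, and 0 of 426 for Klra6 with any other gene. For Klra9, 23.7% were shared with Klra3, Klra8, Klra10 or Klra11-ps. Reads of Klra7, Klra3 and Klra9 could therefore be split between copies, and the handling of such reads was not given in the sources used here.

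Receptors outside Ly49 differed less uniformly. Klrb1c (chr6:128778485-128789215), which encodes NK1.1, was at 40.7, 44.5 and 38.0 CPM in GFP+ and 13.8, 16.8 and 18.1 CPM in GFP- libraries. It was apart in all 6 libraries and called without KT13 and KT21 (1.28, SE 0.22, adjusted p = 0.00764), and 13.7% of its terminal 75-base stretches were shared with Klrb1a, Klrb1b or Gm44511. Klrb1a was at 14.0, 12.4 and 7.18 CPM against 4.92, 1.35 and 3.10 CPM, with an adjusted p of 0.0564 in that fit and of 0.00315 by DESeq2 with all 12 libraries. Klri2, another lectin-like receptor gene, was at 36.5 to 56.7 CPM in GFP+ and at 64.5 to 83.04 CPM in GFP- libraries and was not called. Of 13 genes of the NKG2 and other Klr list, 1 was called higher (0.0949% of all genes) and 0 lower (0.0746%) without KT13 and KT21. Over the 6 libraries 4 were non-overlapping and higher (5.31% of all genes) and 1 was lower (5.33%). The median log2 fold change was -0.13 with all 12 libraries and 0.08 without KT13 and KT21.

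Of the small ITAM adaptors that pair with such receptors, Tyrobp and Fcer1g were called higher and others were not. Tyrobp (chr7:30413760-30417585), which encodes DAP12, was at 22.2, 19.6 and 20.4 CPM in GFP+ and at 9.76, 7.48 and 7.55 CPM in GFP- libraries. The groups were apart and the GFP+ values were tight, with a GFP+ over GFP- difference of 1.33 on the log2 scale (SE 0.19, adjusted p = 0.0298). Without KT19, KT20, KT22, KT23 or KT24 the call was lost, at 1.28 to 1.48 with adjusted p of 0.0585 to 0.323. Fcer1g (chr1:171229572-171234365), the shared Fc receptor gamma chain, was at 115, 154 and 92.7 CPM against 68.4, 46.1 and 42.1 CPM, giving 1.21 on the log2 scale (SE 0.22, adjusted p = 0.0914) and of 0.996 (SE 0.17, adjusted p = 0.00771) without KT13 and KT21. Its groups did not overlap, and KT21 was highest. Plcg2, a phospholipase downstream of ITAM receptors, was at 10.9, 15.8 and 6.74 CPM against 2.89, 3.92 and 4.61 CPM and was called by DESeq2 with all 12 libraries (adjusted p = 0.0127) but not by edgeR (0.233) or limma (0.278). Hcst, which encodes the adaptor DAP10, was at 212 to 298 CPM in GFP+ and 228 to 282 CPM in GFP- libraries, and Cd247, the CD3 zeta chain gene, at 233 to 290.5 and 218 to 312 CPM, with overlap in both. Of 17 genes of the ITAM list, 5 were non-overlapping and higher (5.31% of all genes) and 1 was lower (5.33%), and the median was 0.16. Only the count of lower genes is near the share over all genes.

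**Figure D3:**
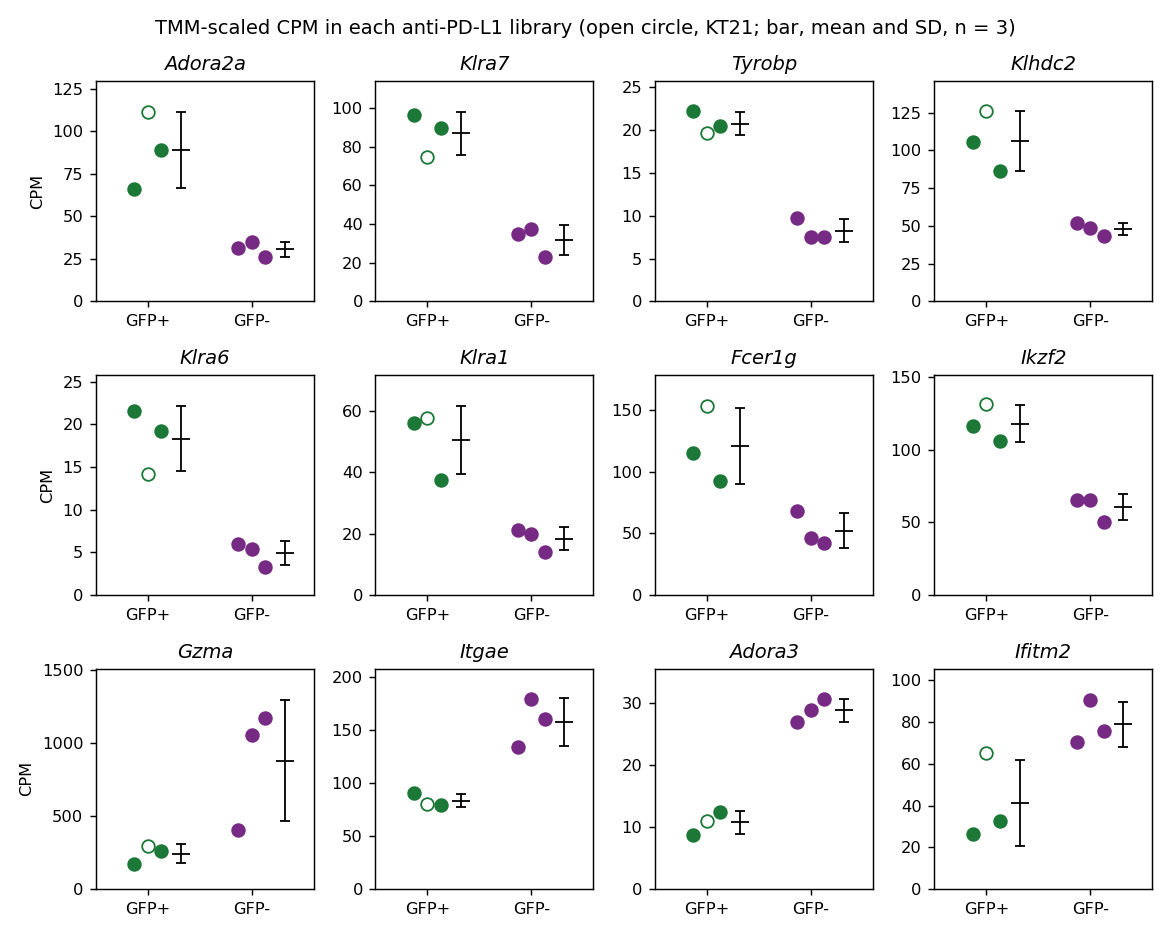
TMM-scaled CPM (y axis, from 0) of 12 of the called genes in each anti-PD-L1 library. Green points are GFP+ and purple points GFP- libraries, the open circle is KT21, and bars give the mean and SD of 3 libraries. The groups do not overlap in any panel, and KT21 is the GFP+ library nearest to the GFP- values for Klra7, Klra6, Tyrobp, Gzma and Ifitm2.

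The remaining genes that were higher encode regulators of diverse kinds. Klhdc2 (chr12:69296681-69310687), which encodes a substrate receptor of a CUL2 ubiquitin ligase, was at 105, 126 and 86.4 CPM in GFP+ and at 51.6, 48.5 and 43.5 CPM in GFP- libraries. All GFP+ libraries were above all GFP- libraries, giving 1.15 on the log2 scale (SE 0.17, adjusted p = 0.0329), or 1.001 (SE 0.14, adjusted p = 0.000519) without KT13 and KT21. The call was lost without KT19, KT20, KT22 or KT24, at 1.10 to 1.23 with adjusted p of 0.0945 to 0.398. Its annotated 3′ end overlaps Nemf on the other strand by 166 bases, and Nemf was at 52.3 to 69.6 CPM in GFP+ and 48.2 to 83.2 CPM in GFP- libraries without a call. Of the 13 genes of the Klhdc2 and CUL2 ligase list Klhdc2 alone was called, where 0.0282% of all genes were called higher with all 12 libraries. Ikzf2 (chr1:69531214-69687245), the transcription factor Helios, was at 117, 131 and 106 CPM against 65.5, 65.7 and 50.1 CPM, and was called without KT13 and KT21 (0.88, SE 0.14, adjusted p = 0.00427). Ikzf4, which encodes its relative Eos, was at 41.6 to 47.0 CPM in GFP+ and at 53.5 to 76.7 CPM in GFP- libraries, with no call (adjusted p = 0.993). Ikzf1 and Ikzf3, the other lymphoid family members, had log2 fold changes of 0.07 (SE 0.14) and 0.05 (SE 0.16).

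Bcl2l11, which encodes the death-promoting protein BIM, was at 82.8, 67.3 and 92.6 CPM in GFP+ and at 51.7, 45.1 and 52.2 CPM in GFP- libraries. The libraries were apart, and the call (0.82, SE 0.14, adjusted p = 0.00771) was present without KT13 and KT21 but not with all 12 libraries (adjusted p = 0.261), where DESeq2 gave 0.0174 and limma 0.00986. Of 16 tested BCL2 family genes Bcl2l11 alone was called, where 0.0949% of all genes were called higher without KT13 and KT21. Chn2, which encodes a Rac GTPase-activating protein, was at 40.7, 38.5 and 44.7 CPM against 23.1, 16.1 and 18.3 CPM (1.16, SE 0.21, adjusted p = 0.00982 without KT13 and KT21). Nrgn, which encodes the calmodulin-binding protein neurogranin, was at 249.7, 251 and 325 CPM against 176, 176 and 157 CPM (0.76, SE 0.13, adjusted p = 0.00646 without these libraries). Cd7, a T and NK cell surface protein, was at 218, 512 and 176 CPM against 122, 134 and 94.2 CPM. KT21 was far above the other libraries for Cd7, giving 1.37 on the log2 scale (SE 0.35, adjusted p = 0.481) with all 12 libraries and 0.76 (SE 0.14, adjusted p = 0.0107) without KT13 and KT21.

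Gzma (chr13:113093825-113100981), which encodes granzyme A, a serine protease of cytotoxic granules, had the largest difference among the genes that were lower. It was at 170.4, 294 and 261 CPM in KT19, KT21 and KT23 and at 404, 1055 and 1174 CPM in KT20, KT22 and KT24. The groups did not overlap, but KT20 was far below the other GFP- libraries. On the log2 scale the difference was -1.86 (SE 0.36, adjusted p = 0.124) with all 12 libraries and -2.03 (SE 0.30, adjusted p = 0.00238) without KT13 and KT21, with 242 ± 63.9 CPM in GFP+ and 877 ± 415 CPM in GFP- cells (SD, n = 3 each). No other gene of the cytotoxic granule list was called. Prf1, which encodes perforin, was at 379, 275 and 565 CPM in GFP+ and at 347, 396 and 417 CPM in GFP- libraries. Gzmb was at 405, 115 and 468 CPM against 464.5, 459 and 562 CPM, with a log2 fold change of -0.59 (SE 0.36), or -0.18 (SE 0.13) without KT13 and KT21. Serpinb9, an inhibitor of granzyme B, was at 27.6, 28.7 and 37.5 CPM against 17.9, 18.96 and 21.8 CPM, apart in all 6 libraries but not called. Over the 17 genes of the list, 2 were non-overlapping and higher (5.31% of all genes) and 1 lower (5.33%), and the median was 0.26 with all 12 libraries and 0.05 without KT13 and KT21.

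Genes of tissue retention and cytokine response were also among those called lower. Itgae (chr11:73090583-73147446), the integrin chain CD103 that binds E-cadherin, was at 90.2, 80.5 and 79.0 CPM in GFP+ and at 134, 179 and 161 CPM in GFP- libraries. The groups did not overlap, giving -0.92 on the log2 scale (SE 0.18, adjusted p = 0.121), or -0.90 (SE 0.16, adjusted p = 0.00969) without KT13 and KT21. Of 11 tissue-resident memory markers, 4 were non-overlapping and lower (background 5.33%) and 0 higher, namely Itgae, Itga1, Cxcr6 and Cdh1. Itgae alone was called, where 0.0746% of all genes were called lower without KT13 and KT21. Cdh1, the E-cadherin gene, was at 178, 155 and 126 CPM against 191, 193 and 296 CPM. Itga1, which encodes the collagen-binding integrin CD49a, was at 76.7 to 78.9 CPM against 90.03 to 98.4 CPM. Cd69, which encodes a retention receptor, was at 129 to 202 CPM against 199 to 222 CPM, with overlap.

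Il7r (chr15:9505788-9530176), the IL-7 receptor alpha chain, was at 62.8, 69.8 and 60.4 CPM in GFP+ and at 106, 94.4 and 97.9 CPM in GFP- libraries. It was apart in all 6 libraries, giving -0.63 on the log2 scale (SE 0.13, adjusted p = 0.209), or -0.69 (SE 0.13, adjusted p = 0.0178) without KT13 and KT21. Slco3a1, an organic anion transporter gene, was at 75.4, 60.6 and 64.3 CPM against 112, 111 and 136 CPM, and was called without KT13 and KT21 (-0.77, SE 0.14, adjusted p = 0.0138). Cmklr1, which encodes a chemerin receptor, was at 6.18, 11.8 and 9.92 CPM against 19.3, 22.7 and 37.2 CPM (-1.72, SE 0.30, adjusted p = 0.00816 without KT13 and KT21). Dkkl1 was at 8.44 to 10.7 CPM against 15.1 to 29.4 CPM (-1.27, SE 0.26, adjusted p = 0.0426 in that fit). Ly6g5b, the called gene whose libraries overlapped, was at 19.4, 32.7 and 21.8 CPM against 32.04, 48.97 and 72.6 CPM, with KT21 above KT20.

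Of the interferon-induced transmembrane protein genes, which restrict virus entry, 3 on chromosome 7 were called lower without KT13 and KT21 (0.0746% of all genes). Ifitm1 (chr7:140967221-140969825) was at 371, 513 and 495 CPM in GFP+ and at 772, 969 and 1239.6 CPM in GFP- libraries. Ifitm2 (chr7:140954837-140955987) was at 26.5, 65.0 and 32.6 CPM against 70.2, 90.8 and 75.6 CPM. Ifitm3 (chr7:141009586-141010770) was at 129, 169 and 133 CPM against 211, 211 and 236 CPM. The libraries were apart for all 3 genes, with KT21 the highest GFP+ library each time. With all 12 libraries the log2 fold changes were -1.11 (SE 0.28), -0.93 (SE 0.27) and -0.61 (SE 0.24), with adjusted p of 0.474, 0.707 and 0.993. Without KT13 and KT21 they were -1.20 (SE 0.21), -1.42 (SE 0.17) and -0.74 (SE 0.15), with adjusted p of 0.00969, 0.000166 and 0.0451. Ifitm2 overlaps Gm45717 on the same strand by 1101 bases, and Gm45717 was at 0 CPM in all 6 libraries. Of the terminal 75-base stretches of Ifitm2, 32.6% were shared with other annotated loci, including Gm11951 and Gm45717, against 1.41% for Ifitm1 and 0.939% for Ifitm3. Ifitm10, which lies apart from these genes, was at 18.1 to 30.6 CPM against 19.03 to 22.7 CPM. Of 5 family members tested, 3 were non-overlapping and lower (5.33% of all genes), with a median of -0.93.

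The start regions of these 3 genes and of Gzma are shown because they were called lower and the interferon-type element described above bears on an interferon-induced family. Gzma is not of this family. The windows of Adora3, Cmklr1, Il7r, Ly6g5b and Dkkl1, also called lower and not shown, held no match to the interferon-type element. That of Il7r held 1 match to TTCNNNGAA, and Itgae and Slco3a1 had no window. Capitals mark matches to the interferon-type element or to TTCNNNGAA on either strand, and windows, source and build are as above. Ifitm2 holds 1 match that ends 37 bases before its start, Ifitm3 holds 2 after its start, the second of which overlaps a TTCNNNGAA match, Gzma holds 1 on the other strand and Ifitm1 holds none of the 3 motifs searched. The Ifitm1 window surrounds a start within the gene, and the 5′ end of the gene as placed above was not searched.
Ifitm2, chr7:140955912-140956211, minus strand: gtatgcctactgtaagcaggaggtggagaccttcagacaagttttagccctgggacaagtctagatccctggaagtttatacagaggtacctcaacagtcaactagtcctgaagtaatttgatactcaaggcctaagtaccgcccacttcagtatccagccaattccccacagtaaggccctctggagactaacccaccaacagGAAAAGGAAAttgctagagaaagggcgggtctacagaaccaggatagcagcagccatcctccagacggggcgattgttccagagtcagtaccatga
Ifitm3, chr7:141010695-141010994, minus strand: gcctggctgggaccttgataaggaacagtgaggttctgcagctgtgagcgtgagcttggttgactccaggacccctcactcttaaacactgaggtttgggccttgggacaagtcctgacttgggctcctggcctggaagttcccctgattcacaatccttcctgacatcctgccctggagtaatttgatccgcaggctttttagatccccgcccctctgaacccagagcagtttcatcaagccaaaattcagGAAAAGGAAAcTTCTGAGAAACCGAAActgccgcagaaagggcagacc
Ifitm1, chr7:140967826-140968125, plus strand: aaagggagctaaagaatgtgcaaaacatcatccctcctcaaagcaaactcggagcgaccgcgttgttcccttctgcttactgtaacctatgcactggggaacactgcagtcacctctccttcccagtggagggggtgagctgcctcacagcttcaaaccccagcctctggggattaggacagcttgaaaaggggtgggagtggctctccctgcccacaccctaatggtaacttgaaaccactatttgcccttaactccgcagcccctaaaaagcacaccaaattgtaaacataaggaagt
Gzma, chr13:113100932-113101231, minus strand: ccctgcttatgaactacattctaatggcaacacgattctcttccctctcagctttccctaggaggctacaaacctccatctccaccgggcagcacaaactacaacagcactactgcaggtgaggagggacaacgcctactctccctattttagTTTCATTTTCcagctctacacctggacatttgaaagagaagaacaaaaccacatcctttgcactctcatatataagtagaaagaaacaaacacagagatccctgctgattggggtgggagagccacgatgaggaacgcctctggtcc

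Type I interferon-stimulated genes outside that family were not called. All 43 were tested, and 0 were called by edgeR with all 12 libraries, without KT21 or without KT13 and KT21, or by DESeq2 or limma with all 12 libraries. Of the 43, 36 had a negative and 7 a positive log2 fold change, where 50.1% of all 14173 genes had a positive one, and 6 were non-overlapping and lower (5.33% of all genes) with 0 higher. The median was -0.16, and -0.20 without KT13 and KT21. With KT21 set aside, 23 of 43 had both remaining GFP+ libraries below all GFP- libraries, against 10.8% of all genes. Isg15, which encodes a ubiquitin-like modifier, was at 351, 253 and 320.4 CPM in GFP+ and at 402, 429 and 419.8 CPM in GFP- libraries. Ifit1, an RNA-binding interferon effector gene, was at 236, 144 and 225 CPM against 249.7, 273 and 273 CPM. Of 17 interferon-induced GTPases, 4 were non-overlapping and lower (5.33% of all genes) and 0 higher, with a median of -0.23, and Iigp1 was at 38.5, 29.0 and 23.4 CPM against 57.3, 53.0 and 38.7 CPM without a call.

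**Figure D4:**
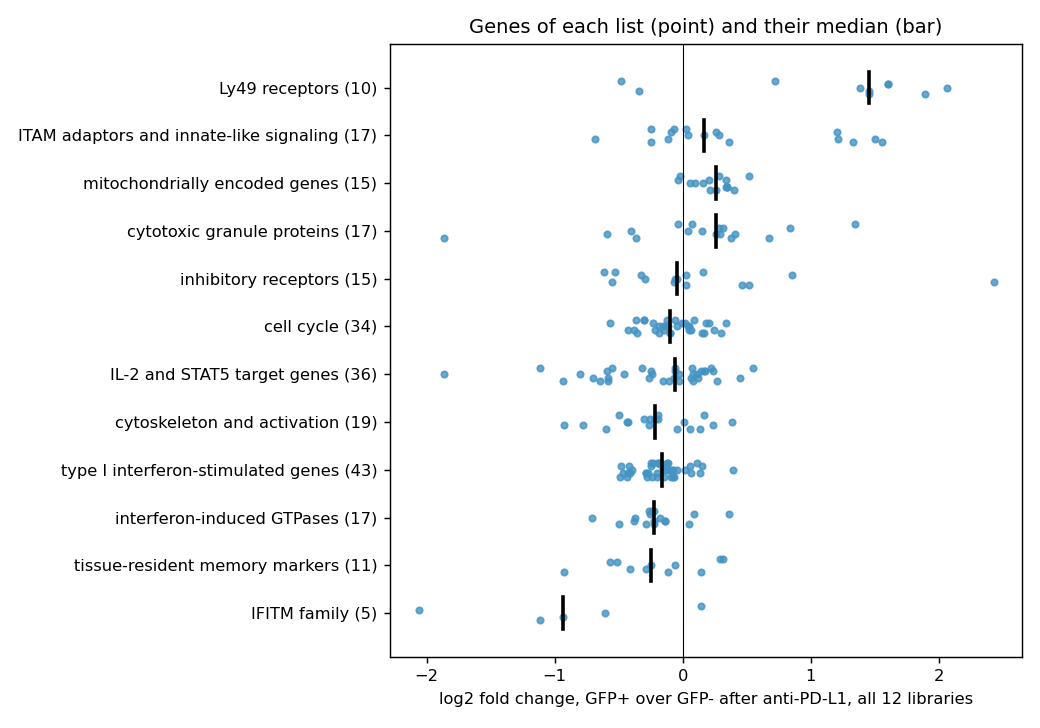
Log2 fold change of GFP+ over GFP- cells after anti-PD-L1 with all 12 libraries (x axis) for the tested genes of 12 lists, with the number of tested genes in parentheses. Points are genes and black bars are medians. The Ly49 median is 1.45 and the IFITM median is -0.93, while the other 10 medians lie between -0.25 and 0.26.

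Most effector cytokine, checkpoint receptor and memory genes had overlapping libraries. Of 15 tested effector cytokines and death ligands, 3 were non-overlapping and lower (5.33% of all genes) and 0 higher (5.31%). Of 17 stem-like and memory markers, 3 were non-overlapping and lower and 1 was higher, and Il7r, given above, was called lower without KT13 and KT21 (0.0746% of all genes). Ifng, which encodes interferon gamma, was at 464, 499.7 and 507 CPM in GFP+ and at 508, 525 and 470.03 CPM in GFP- libraries. Its log2 fold change was -0.03 (SE 0.16), and the groups overlapped. Tnf, which encodes tumor necrosis factor, was at 36.8, 35.9 and 34.3 CPM against 44.6, 56.8 and 72.0 CPM, apart in all 6 libraries but not called (-0.70, SE 0.23, adjusted p = 0.959). Lta, which encodes lymphotoxin alpha, was at 21.5, 21.3 and 18.8 CPM against 32.04, 38.2 and 39.3 CPM, with an adjusted p of 0.244 by edgeR and 0.0317 by DESeq2 with all 12 libraries, and 0.0876 by edgeR without KT13 and KT21. Pdcd1, which encodes PD-1, was at 127, 128 and 174 CPM against 134, 139 and 148 CPM, and Havcr2, which encodes TIM-3, was at 96.3, 96.8 and 141 CPM against 109, 119 and 116 CPM. Of 15 inhibitory receptors 0 were called by edgeR, DESeq2 or limma with all 12 libraries. Cd160, at 88.7 to 93.7 CPM against 58.3 to 66.8 CPM, was the 1 that was non-overlapping and higher (5.31% of all genes), and Lair1, at 3.55 to 4.47 CPM against 5.28 to 6.56 CPM, was the 1 that was lower (5.33%), so both counts are near the share over all genes. Tcf7, which encodes the memory factor TCF1, was at 64.1, 16.1 and 49.8 CPM against 45.1, 46.0 and 37.0 CPM. KT21 alone was below the GFP- libraries for Tcf7, and the log2 fold change of 0.02 (SE 0.37) was 0.41 (SE 0.16, adjusted p = 0.774) without KT13 and KT21. Slamf6, a receptor of stem-like T cells, was at 18.9 to 32.9 CPM against 18.5 to 23.5 CPM. Mki67, a proliferation marker, was at 57.0, 119.9 and 57.8 CPM against 76.7, 67.6 and 66.6 CPM, with KT21 high, and 0 of 34 cell cycle genes were called in the edgeR fits.

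Among 36 genes known to respond to IL-2 and STAT5, 10 were non-overlapping and lower (background 5.33%) and 1 was higher, and the median was -0.06. Called by edgeR without KT13 and KT21 were Gzma, Ifitm1 and Ifitm2 alone, all lower (0.0746% of all genes). Socs2, a suppressor of cytokine signaling, was at 22.7, 24.5 and 26.8 CPM in GFP+ and at 41.4, 44.8 and 42.7 CPM in GFP- libraries. The groups were apart and each was tight, but the adjusted p was 0.209 with all 12 libraries and 0.0634 without KT13 and KT21 by edgeR, and 0.0124 by DESeq2 and 0.0515 by limma with all 12 libraries. Cish, a STAT5 target of the same family, was at 271, 205 and 324 CPM against 362, 429.6 and 463 CPM (adjusted p = 0.567). Il2ra, the high-affinity IL-2 receptor chain, was at 44.9 to 48.6 CPM against 55.9 to 90.1 CPM (adjusted p = 0.993). Of 19 genes of cytoskeleton and activation, 5 were non-overlapping and lower (5.33% of all genes) and 0 higher, and none was called in the edgeR fits. Vim, which encodes vimentin, was at 1152, 594 and 1209.99 CPM against 1645, 1642 and 1776 CPM, with an adjusted p of 0.0537 without KT13 and KT21. Of 15 mitochondrially encoded genes, 5 were non-overlapping and higher (5.31% of all genes) and 0 lower, with a median of 0.26 and no calls in these fits. The mitochondrial share of all counts was 2.85% to 2.94% in GFP+ and 2.51% to 2.75% in GFP- libraries (p = 0.1 by a two-sided exact permutation test, below which 3 against 3 cannot go). Ribosomal protein genes took 15.2% to 17.3% and 14.4% to 14.8% of the counts (exact permutation test, p = 0.1). These were among 5 such library values compared, and none could pass 0.05 in this design.

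Markers of other cells were examined because a sort can carry over other cells. In bulk sorts, fewer cells of a type and less RNA per cell cannot be told apart. Of 11 NK cell markers, 8 were tested, and the summed level of the list was 142 to 143 CPM in GFP+ and 122 to 139 CPM in GFP- libraries. Of the 8, 7 had a positive log2 fold change and 1, Klri2, a negative one. Their median was 1.27 with all 12 libraries and 1.19 without KT13 and KT21. Ncr1, the NK receptor NKp46, was at 3.54, 5.31 and 5.11 CPM against 2.098, 1.21 and 2.72 CPM, Gata2 was at 0 in all 6 libraries, and neither Cma1 nor Khdc1a exceeded 0.784 CPM. Eomes, shared by NK and CD8+ T cells, was at 31.5 to 38.6 CPM against 26.6 to 31.8 CPM. Of the 8 tested NK markers 4 were non-overlapping and higher (5.31% of all genes), Klrb1c, Klra8, Klri1 and Ncr1, and Klri2 was lower (5.33%). These values moved with the Ly49, Klrb1c, Tyrobp and Fcer1g results, which is partly fixed because Klrb1c and the Ly49 genes Klra4 and Klra8 are members of this list. The part of these markers in those results was not tested. The macrophage and monocyte list summed to 121 to 192 CPM against 135 to 173 CPM, and C1qb was at 10.4 to 22.7 CPM against 8.46 to 18.2 CPM, with overlap. The dendritic cell list summed to 134 to 259.8 CPM against 137 to 218 CPM. Of the B cell list, Ms4a1 did not exceed 0.0723 CPM, while Ighm was at 89.7 to 122 CPM against 67.2 to 81.3 CPM and the list summed to 97.5 to 133 CPM against 73.004 to 87.04 CPM. The gamma delta T cell list summed to 166 to 305 CPM against 261 to 377 CPM, and the list of CD4 and regulatory T cells to 125 to 331 CPM against 293 to 347 CPM, with Foxp3 at 6.44 to 15.3 CPM against 15.9 to 24.9 CPM. The NKT cell list summed to 26.0 to 30.4 CPM against 25.4 to 29.3 CPM, with Il4 at 0. Neutrophil markers summed to 0.592 to 0.986 CPM against 2.57 to 2.78 CPM, fibroblast and endothelial markers to 10.4 to 28.8 CPM against 11.7 to 26.8 CPM, the tumor epithelium list to 138 to 204 CPM against 205 to 308 CPM, most of it Cdh1, and erythroid and platelet markers to 126 to 375 CPM against 190.2 to 289.5 CPM. The NK cell, B cell, neutrophil and tumor epithelium sums did not overlap between the groups, and their part in the differences above was not tested.

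The same sort in non-treated tumors shared no library with the comparison after anti-PD-L1. Without KT13 and KT21, all 25 genes had the same sign there, where 56.1% of all 14747 genes did, and 14 of the 25 were called there, 9 higher and 5 lower, where 50 of all genes (0.339%) were called. Adora2a had a log2 fold change of 1.47 (SE 0.17) in non-treated and 1.34 (SE 0.17) in anti-PD-L1 tumors. Ikzf2 had 0.88 in both (SE 0.14 each), and Gzma had -1.75 (SE 0.30) and -2.03 (SE 0.30). Tyrobp stood out with 0.23 (SE 0.20) in non-treated and 1.37 (SE 0.21) in anti-PD-L1 tumors. In non-treated tumors it was at 24.9, 24.1 and 21.8 CPM in GFP+ and at 17.9, 21.3 and 19.5 CPM in GFP- libraries, against 7.48 to 9.76 CPM in the GFP- libraries after anti-PD-L1. The difference of its log2 fold changes was 1.13 (SE 0.29, unadjusted p = 0.000819, adjusted p = 0.9998). Itgae had -0.27 (SE 0.16) and -0.90 (SE 0.16), with an unadjusted p of 0.0095 for the difference, and Bcl2l11 had 0.29 (SE 0.14) and 0.82 (SE 0.14), with an unadjusted p of 0.0151. Klra1 had 0.67 (SE 0.20) and 1.35 (SE 0.21). Of the 25 genes, 6 had an unadjusted p under 0.05 for the difference between arms. These genes were chosen by their difference after anti-PD-L1, which is a part of this contrast, so their selection itself favors a low p here. By edgeR's quasi-likelihood test over all 14747 genes 0 were called, with 632 at an unadjusted p under 0.05. That is fewer than the 0.05 share of genes expected with no difference. With all 12 libraries, edgeR, DESeq2 and limma with sample quality weights also called 0. They had 295, 374 and 570 of 14173 genes at an unadjusted p under 0.05, each under that share, whereas edgeR with no filter beyond 1 count called 10 of 26418.

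**Figure D5:**
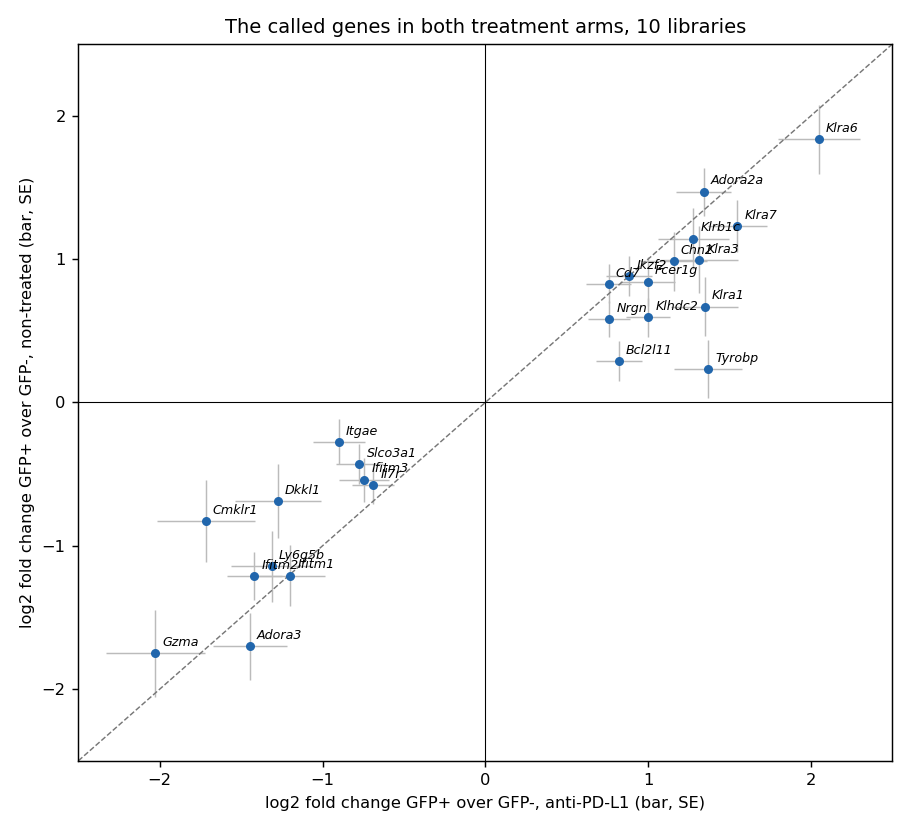
Log2 fold change of GFP+ over GFP- cells after anti-PD-L1 (x axis) and in non-treated tumors (y axis) for the 25 called genes, without KT13 and KT21. Points are genes, bars are standard errors and the dashed line marks equal values; all points share a sign in both arms, and Tyrobp, at 1.37 and 0.23, lies far below the line.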

How the data were processed

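Read counts per gene from 12 libraries of flow-sorted CD8+ tumor-infiltrating T cells were deposited by the authors as one table of raw counts, 52636 genes in all. According to the study's methods and the submitters' processing notes, Lexogen QuantSeq 3′ libraries were trimmed with Cutadapt (version 1.7 in the notes, another in the methods), mapped by HISAT2 to the mm10 build, and featureCounts gave the counts (Subread 1.6.4 in the notes). The annotation release, strand setting and handling of multiply aligned reads were not given in the sources used here.

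From these counts, genes were filtered with filterByExpr on the 4 groups, scaled by TMM and tested with edgeR 4.0.16 (quasi-likelihood F test, Benjamini-Hochberg adjustment, called under 0.05) in R 4.3.3, with all 12 libraries in one fit. Contrasts were GFP+ minus GFP- after anti-PD-L1, the same in non-treated tumors, and their difference. The standard errors given for edgeR are the absolute log2 fold change divided by the square root of the F statistic. CPM values use TMM-scaled totals. DESeq2 1.42.0, limma 3.58.1 (voom with sample quality weights), other filters and normalization, robust empirical Bayes, the anti-PD-L1 libraries alone and the omission of each library were tried. The fits by DESeq2, limma or upper-quartile normalization without KT13 and KT21 were added after seeing the data. The code was tested on simulated counts. No libraries held identical values. Shares of counts were compared with exact permutation tests over libraries.

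Named genes were Adora2a and its neighbours, every called gene, list members that were called or had large differences, a fixed set of T cell genes, and the genes with the smallest p among those that did not overlap. Other list members, Tmsb4x and Nemf were named after their values were seen. The comparison, the 44 gene lists and the named genes were chosen with earlier results of these data known. Lists were described by counts and medians only, without a test. Promoter windows and transcript overlaps came from RefSeq (GRCm38.p6) and GENCODE annotation. Depth was 12881695 to 15746937 counts in the 6 anti-PD-L1 libraries.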

Additional observations from a re-analysis of the deposited data

How the results depend on the processing

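The number of genes called depended on the fit, and the cause was not tested. With all 12 libraries, edgeR called 4 genes higher and 0 lower in GFP+ cells after anti-PD-L1. The numbers were 31 and 16 by DESeq2, 13 and 7 by limma with sample quality weights, 31 and 18 with no filter beyond 1 count, and 14 and 11 without KT13 and KT21. Robust empirical Bayes called 10 and 0. The 6 anti-PD-L1 libraries alone gave 0 and 0 (450 at p under 0.05 before adjustment), and 18 and 14 without KT21. Without KT13 and KT21, in fits added after seeing the data, DESeq2 called 28 and 36, limma 21 and 19, and upper-quartile normalization 14 and 10. Leaving out 1 anti-PD-L1 library at a time gave 0 to 5 genes higher and 0 to 1 lower. Without KT20, KT22 or KT24 0 genes were called, without KT19 1 gene, without KT21 5 higher and 1 lower, and without KT23 4 higher. The difference between treatment arms called 0 genes by edgeR with all 12 libraries and 10 with no filter beyond 1 count. Over 185 named genes and 18 alternatives no direction reversed for a called value, and 193 values gained and 21 lost the call. No paired analysis was possible because the replicate codes are unique to each library and the labels tie no GFP+ library to a GFP- library. Groups of 3 pooled libraries limit the precision, as do 3′ counts for genes that share end sequence with a relative.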
